A study of Mus musculus with 18 samples.

Results

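The 9 genes described here encode inhibitory and costimulatory receptors of the T cell surface: Ctla4, Icos, Pdcd1 and Btla, Tigit, Cd96 and Cd226, and Lag3 and Havcr2. They were taken by symbol from a list and matched to Ensembl gene IDs, which gave 9 of the 55487 genes in each table. Ctla4, Icos, Pdcd1 and Btla belong to the CD28 family of immunoglobulin-type receptors. CTLA-4 takes CD80 and CD86 away from the costimulator CD28, ICOS is a costimulator that binds ICOS ligand, and PD-1 (Pdcd1) and BTLA carry inhibitory tyrosine motifs and bind PD-L1 or PD-L2 and HVEM (Tnfrsf14). TIGIT, CD96 and CD226 compete for the poliovirus receptor CD155 (Pvr) and related nectins, with CD226 costimulatory and TIGIT inhibitory. LAG-3 binds MHC class II, and TIM-3 (Havcr2) is an inhibitory receptor also made by myeloid and dendritic cells.

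The series compared regulatory T (Treg) cells, CD4+ cells defined by the transcription factor Foxp3 that restrain other immune cells, taken freshly by sorting from lung, liver, bone marrow, lymph node, spleen and peripheral blood. All 6 groups were wild-type mice with no treatment, and each held 3 libraries of polyadenylated RNA, 18 in all. The sorting gates, the age and sex of the mice and the number of animals behind a library are not stated in the sources used here. Nothing there says that replicates came from separate animals or sorts, so the p-values measure only the spread between these libraries, which may be technical.

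Values are TPM (transcript abundance scaled to the same total in every library), a share of each library's RNA that is corrected for gene length, so levels can be compared between genes. Between 14314 and 19797 genes were above 0 in a library. Foxp3 was present in every library and lowest in blood, at 88.6 ± 3.39 TPM (SD, n = 3), against 139.7 ± 9.03 in spleen and up to 238.5 ± 2.14 in lymph node. The T cell receptor gene Cd3e was also lowest in blood, at 277.2 ± 8.04 TPM, against group means of 430.5 in bone marrow to 690.6 in lymph node. All 14 myeloid markers exceeded a mean of 1 TPM in blood, and their summed level was 27141.7 to 27958.7 TPM there, 38371.0 to 38626.6 in bone marrow, 1976.5 to 2053.5 in lung and at most 779.8 in the other groups. Platelet markers, 7 of 7 above a mean of 1 TPM in blood, summed to 2208.8 to 2244.1 TPM in blood and to at most 82.8 elsewhere, with Gp1bb and Treml1 listed at 0 in all lymph node libraries. The 8 B cell markers summed to 616.5 to 645.5 TPM in blood, 561.4 to 606.2 in spleen, 520.1 to 540.5 in bone marrow and at most 166.3 elsewhere. The 12 natural killer and CD8 T cell markers summed to 755.2 to 816.2 TPM in blood and at most 277.6 elsewhere. In bulk samples, fewer cells of a type and less RNA per cell cannot be told apart. Each receptor was therefore also expressed relative to 20 general T cell genes. Their scaling factor was the geometric mean of their TPM + 1 in a library, relative to the geometric mean of all libraries. It was 0.616 to 0.631 in blood, 1.337 to 1.365 in lymph node and between 0.852 and 1.233 in the other groups.

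**Figure D1:**
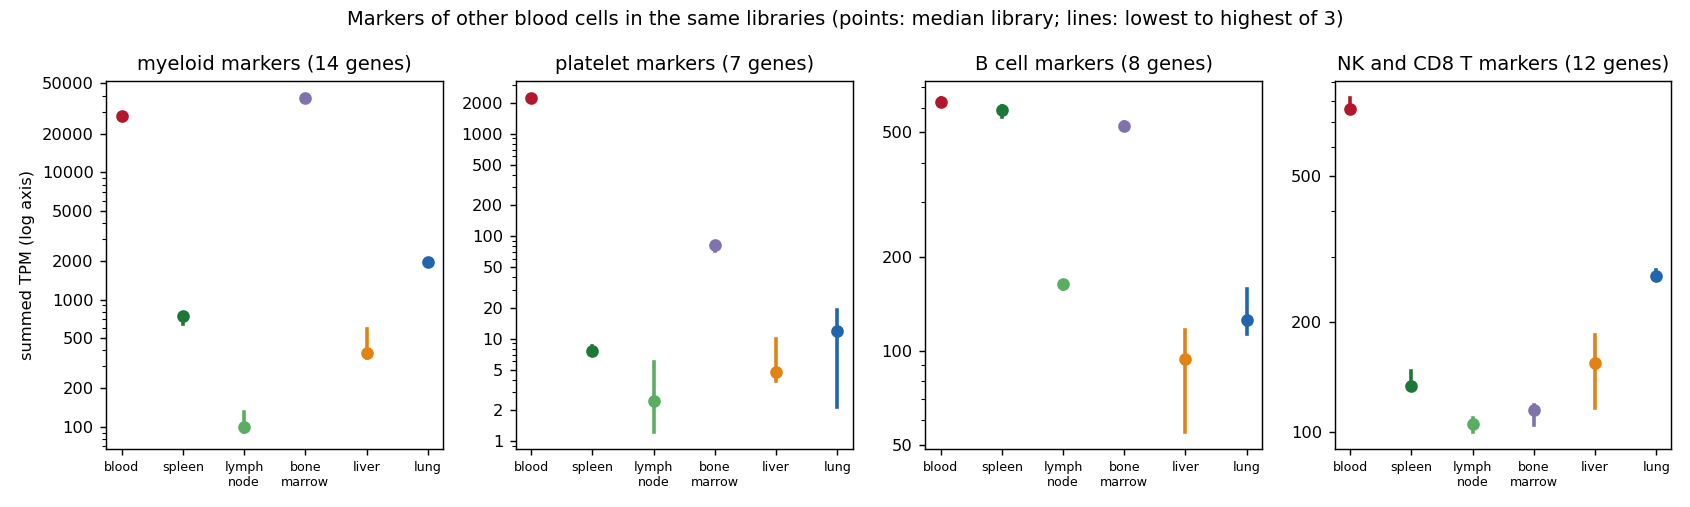
Summed TPM (log axis) of marker lists for myeloid cells, platelets, B cells, and natural killer (NK) and CD8 T cells at the 6 sites; points are the median library and lines run from the lowest to the highest of 3. Bone marrow and blood hold the highest myeloid sums, and platelet markers are highest in blood.

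Every one of the 9 receptors differed among the 6 sites (limma F test, adjusted p from 1.22e-16 for Pdcd1 to 3.37e-06 for Havcr2). Of all 16694 genes tested, 68% passed the same test. The receptors fell into 3 kinds of pattern: Ctla4, Icos, Tigit and Pdcd1 were lowest in blood and highest in lung, Lag3 and Cd96 were lowest in blood and highest in lymph node, and Btla, Havcr2 and Cd226 each had an order of their own. The ratio of the highest to the lowest group mean was 63.3 for Pdcd1, 37.4 for Lag3, 29.8 for Tigit, 13.8 for Icos, 11.1 for Ctla4, 10.3 for Havcr2, 5.81 for Cd226, 2.22 for Btla and 1.82 for Cd96. Together the 9 receptors held 501.9 ± 28.4 TPM in blood and 2862.8 ± 45.6 in lung (SD, n = 3), with 837.8 in spleen, 1123.8 in lymph node, 815.4 in bone marrow and 2232.0 in liver. Ctla4 alone made up 26.7% of that sum in blood, 24.0% in spleen, 47.7% in liver and 51.9% in lung.

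**Figure D2:**
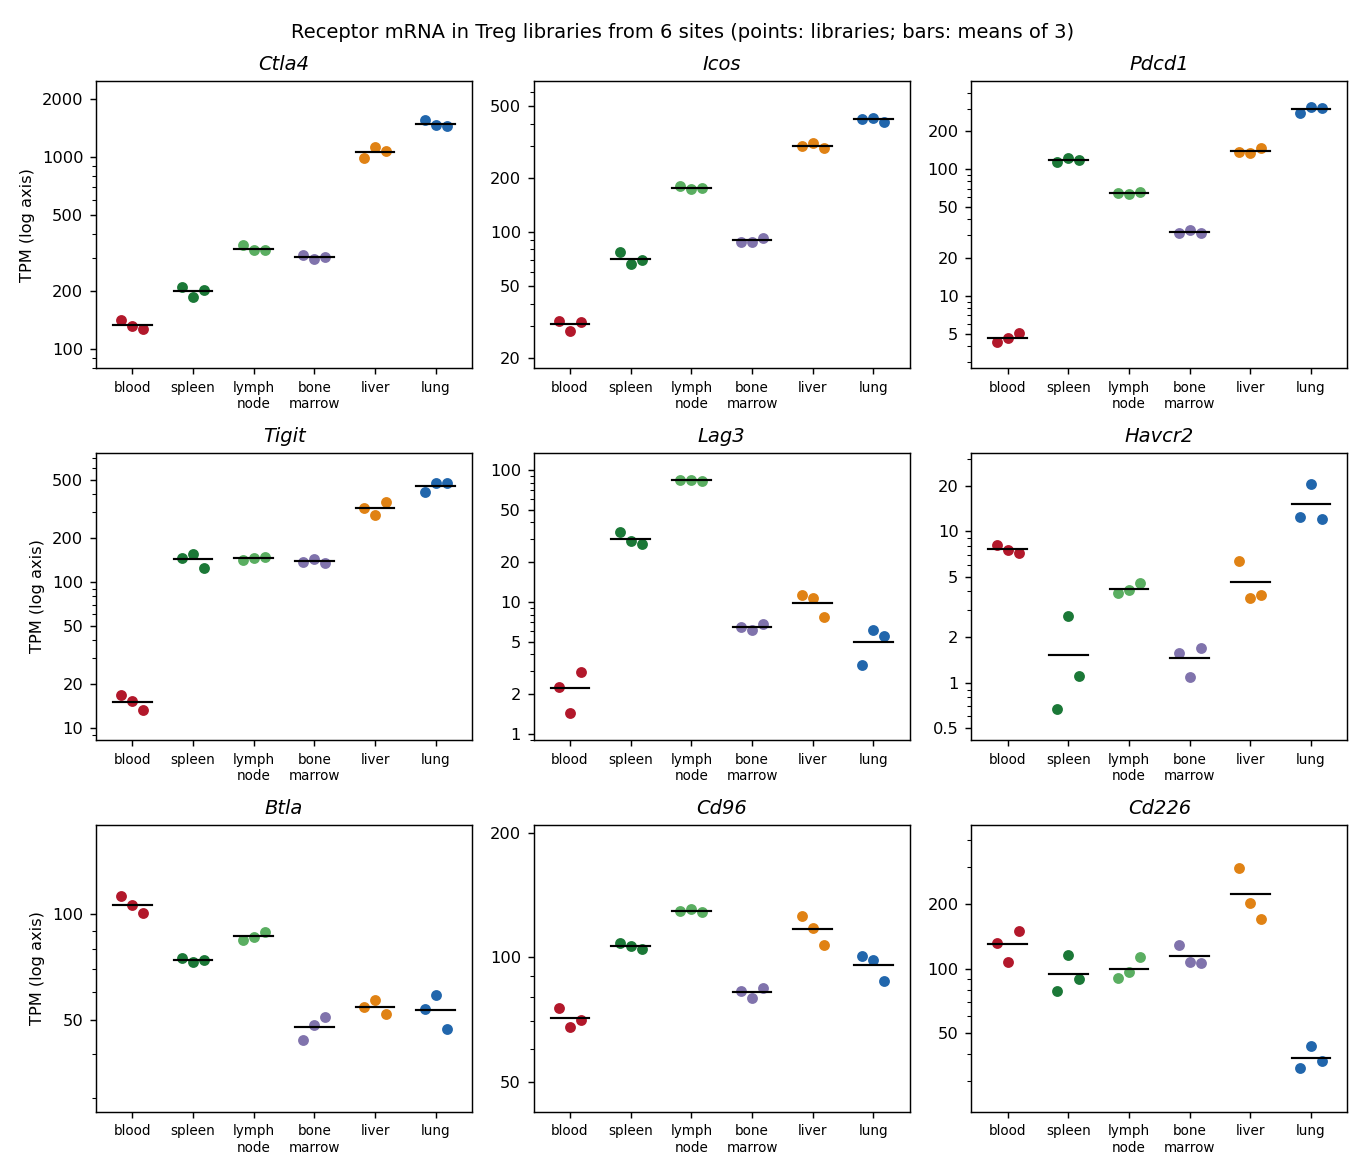
TPM (log axis) of each of the 9 receptors in Treg libraries from 6 sites; points are libraries and bars are means of 3. Ctla4, Icos, Tigit and Pdcd1 are lowest in blood and highest in lung, Lag3 peaks in lymph node, Btla is highest in blood and Cd226 is lowest in lung.

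Ctla4 lies on chromosome 1 at 60887000 to 60915832 on the plus strand (GRCm38, GENCODE M21), and Icos follows it on the same strand at 60977927 to 61000320, 62.1 kb further on. Cd28, the third receptor of the cluster, ends 113.6 kb before Ctla4. A pseudogene, Rpl18-ps1, lies within Ctla4 and a gene known by number, Gm37039, within Icos, neither over an exon of the receptor.

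Ctla4 measured 141.48, 132.35 and 127.77 TPM in the 3 blood libraries and 210.14, 187.23 and 204.74 in spleen. It measured 309.58, 296.78 and 300.69 TPM in bone marrow and 347.96, 328.44 and 327.30 in lymph node. Liver held 986.59, 1124.53 and 1081.88 TPM and lung 1553.86, 1460.44 and 1442.63. No 2 neighbouring sites in this order overlapped, and the step between lymph node and liver was the widest. The log2 fold change of blood, on the log2(TPM + 1) scale used for all fold changes, was -0.58 against spleen, -1.32 against lymph node, -1.17 against bone marrow, -2.98 against liver and -3.46 against lung (limma, SE 0.06 each, adjusted p from 8.58e-07 to 7.43e-16). Relative to the 20 T cell genes, the difference from spleen turned to 0.30 (adjusted p = 0.000372) and that from lymph node shrank to -0.20 (adjusted p = 0.00797), while liver (-2.02) and lung (-2.80) stayed far above blood. Relative to Foxp3, a scale added after seeing the data, neither spleen (0.07, adjusted p = 0.629) nor lymph node (0.11, adjusted p = 0.405) passed.

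Icos measured 32.12, 28.10 and 31.81 TPM in blood, 77.02, 66.19 and 69.70 in spleen and 88.57, 87.85 and 93.23 in bone marrow. It rose further to 179.35, 172.49 and 174.72 TPM in lymph node, 298.72, 313.66 and 291.38 in liver and 425.20, 430.55 and 409.96 in lung. Every site was separate from its neighbours in this order, and blood was lowest. The log2 fold change of blood was -1.18 against spleen, -1.52 against bone marrow, -2.48 against lymph node, -3.26 against liver and -3.74 against lung (limma, SE 0.07, adjusted p from 9.36e-10 to 1.32e-15). Icos stayed below every other site in blood relative to the T cell genes too, at -0.32 against spleen (adjusted p = 0.00129), where the difference was smallest.

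Ctla4 and Icos did not keep a fixed proportion. The Icos to Ctla4 ratio was 0.525 ± 0.0092 in lymph node and 0.353 ± 0.013 in spleen, against 0.229 ± 0.0184 in blood, 0.284 ± 0.0172 in liver, 0.284 ± 0.0106 in lung and 0.297 ± 0.012 in bone marrow (SD, n = 3). The lymph node ratio was thus above all others by more than the spread between libraries. Cd28, which shares CD80 and CD86 with CTLA-4, was 79.98 ± 6.19 TPM in blood, 77.8 ± 3.26 in spleen, 107.5 ± 1.11 in lymph node, 65.1 ± 0.95 in bone marrow, 213.9 ± 32.2 in liver and 207.8 ± 10.1 in lung. The Ctla4 to Cd28 ratio was lowest in blood, at 1.68 ± 0.111, followed by 2.58 in spleen, 3.11 in lymph node, 4.64 in bone marrow, 5.02 in liver and 7.16 ± 0.34 in lung. These ratios share the same libraries, do not depend on the scaling and were given no test.

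Pdcd1, which encodes PD-1, lies on chromosome 1 at 94038305 to 94052553 on the minus strand. It had the lowest level in blood of the CD28 family members, at 4.29, 4.64 and 5.06 TPM. Bone marrow held 31.10, 33.05 and 31.41 TPM, lymph node 65.26, 63.78 and 65.63, spleen 112.65, 121.52 and 116.90, liver 137.08, 133.82 and 147.67 and lung 276.02, 309.47 and 300.60. All 6 sites were separate in this order, and unlike Ctla4 and Icos, Pdcd1 was higher in spleen than in lymph node or bone marrow. The log2 fold change of blood was -2.54 against bone marrow, -3.54 against lymph node, -4.38 against spleen, -4.63 against liver and -5.71 against lung (limma, SE 0.07, adjusted p from 1.28e-12 to 8.02e-17). Over all 29 alternative settings, blood stayed below bone marrow by between -2.75 and -1.92 and below lung by between -5.96 and -4.45.

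Tigit lies on chromosome 16 at 43648867 to 43664146 on the minus strand. It measured 16.95, 15.38 and 13.31 TPM in blood. Spleen held 146.38, 155.75 and 124.79 TPM, lymph node 141.91, 145.98 and 147.15 and bone marrow 136.88, 143.74 and 134.84, and these 3 sites overlapped. Liver, at 318.00, 287.15 and 348.72 TPM, and lung, at 410.99, 476.13 and 470.85, were separate from them and from each other. The log2 fold change of blood was near -3 for each of the overlapping sites (-3.14 for spleen, -3.18 for lymph node and -3.11 for bone marrow) and larger against liver (-4.30) and lung (-4.81; limma, SE 0.10, adjusted p from 3.06e-12 to 6.81e-15). Set against Foxp3 in the same library, the Tigit ratio was 0.172 ± 0.0271 for blood, followed by lymph node at 0.608 ± 0.0129, bone marrow at 0.939, spleen at 1.02, lung at 1.96 and liver at 2.16 ± 0.392 (SD, n = 3). Natural killer and CD8 T cells also make TIGIT and CD96. The combined marker sum of these cells was highest in blood, and its part in the Tigit and Cd96 values was not tested.

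For Ctla4, Tigit and Pdcd1, low in blood and high in lung, and for Btla, highest in blood, the RefSeq sequence before the gene's start (GRCm38.p6) is shown to let the promoters be compared. The windows run 250 bases up to the start (228 for Btla), 5′ to 3′ on the gene's strand, at chr1:60908775-60909024 for Ctla4, chr16:43664185-43664434 for Tigit, chr1:94052554-94052803 for Pdcd1 and chr16:45224087-45224314 for Btla. The Ctla4 window lies inside the gene span given above, which begins with a noncoding transcript; it ends directly before 60909025, where the protein-coding transcript Ctla4-201 starts in GENCODE M21. The Tigit window ends at 43664185, a short distance before 43664146, where Tigit-201 starts on the minus strand in GENCODE M21. Capitals mark matches to the 5 motifs searched.
Ctla4: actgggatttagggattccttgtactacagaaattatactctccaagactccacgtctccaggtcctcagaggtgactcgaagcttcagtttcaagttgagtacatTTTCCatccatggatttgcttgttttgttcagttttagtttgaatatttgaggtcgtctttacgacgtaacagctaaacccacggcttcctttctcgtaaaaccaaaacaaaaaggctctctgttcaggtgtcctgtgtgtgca
Tigit: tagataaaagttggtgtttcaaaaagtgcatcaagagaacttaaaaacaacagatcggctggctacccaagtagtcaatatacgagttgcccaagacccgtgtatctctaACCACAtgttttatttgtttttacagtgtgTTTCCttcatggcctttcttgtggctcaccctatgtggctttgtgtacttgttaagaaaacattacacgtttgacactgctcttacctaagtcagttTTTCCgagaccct
Pdcd1: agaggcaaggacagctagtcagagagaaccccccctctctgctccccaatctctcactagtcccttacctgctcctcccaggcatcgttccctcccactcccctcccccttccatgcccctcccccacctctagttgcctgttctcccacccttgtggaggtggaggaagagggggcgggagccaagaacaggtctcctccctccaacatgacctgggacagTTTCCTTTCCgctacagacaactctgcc
Btla: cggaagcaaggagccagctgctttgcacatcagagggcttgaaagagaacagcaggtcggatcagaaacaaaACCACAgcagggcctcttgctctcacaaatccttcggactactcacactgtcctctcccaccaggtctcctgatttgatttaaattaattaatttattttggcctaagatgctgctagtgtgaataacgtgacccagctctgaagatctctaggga
The motifs, searched on both strands, were TGANTCA (AP-1), GGAAA (the core bound by NFAT), TGTTTAC (forkhead), TTCNNNGAA (STAT) and TGTGGT (Runx). Ctla4 held 1 GGAAA core, Tigit 2 with 1 TGTGGT, Pdcd1 2 directly in a row, and Btla no core and 1 TGTGGT. Of 32851 promoter windows of 250 bases, 55.6% held GGAAA, 7.02% TTCNNNGAA, 6.75% TGANTCA and 3.17% TGTTTAC, and TGTGGT was in 4614 of them. Promoters of Havcr2 and Cd96 were also in the RefSeq set, 6 of the 9 receptors in all. Havcr2 held no GGAAA core, 1 TGANTCA and 1 TGTGGT. Cd96, whose direction in blood depended on the scale, held 4 GGAAA cores, 1 TTCNNNGAA and 1 TGTGGT. Lag3, Icos and Cd226 were not matched there. A match is a run of letters and was not tested for binding.

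Btla, on chromosome 16 at 45224315 to 45257670 on the plus strand, ran the other way. It measured 112.57, 106.19 and 100.68 TPM in blood, 84.33, 86.53 and 89.04 in lymph node and 75.06, 73.39 and 74.10 in spleen. Liver (54.41, 57.05 and 52.19), lung (53.82, 58.88 and 47.25) and bone marrow (43.93, 48.59 and 51.13) were lower, and lung overlapped both of the others. Blood was above every other site without overlap. The log2 fold change of blood was 0.29 against lymph node (adjusted p = 0.0115), 0.51 against spleen, 0.95 against liver, 0.99 against lung and 1.14 against bone marrow (limma, SE 0.08, adjusted p of the last 4 from 0.000146 to 4.57e-08). The call against lymph node was lost without blood replicate 1 (0.25, adjusted p = 0.0565). Relative to the T cell genes the gap widened, to 171.1 ± 9.38 in blood against means of 45.0 to 64.5 at the other sites. B cells also make BTLA. The B cell marker sum was 616.5 to 645.5 TPM in blood, 561.4 to 606.2 in spleen, 520.1 to 540.5 in bone marrow and at most 166.3 at the other sites. The part of B cells in these values was not tested.

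Cd96, on chromosome 16 at 46035657 to 46120251 on the minus strand, varied least of the 9. It measured 75.48, 67.59 and 70.31 TPM in blood, 82.94, 79.76 and 84.06 in bone marrow and 100.49, 98.44 and 87.79 in lung. Spleen held 108.12, 106.32 and 104.81 TPM, liver 125.53, 117.99 and 107.20, and lymph node 129.11, 130.92 and 128.88, with spleen and liver overlapping. Blood was lowest in TPM, by -0.21 (bone marrow, adjusted p = 0.0341) to -0.86 on the log2 scale (lymph node, adjusted p = 7.15e-08, limma, SE 0.07). This order depended on the scale. Relative to the T cell genes, blood was highest at 114.3 ± 7.32 while the other 5 means ranged from 92.6 to 96.9, and the 5 log2 fold changes turned to between 0.24 and 0.30 (adjusted p from 0.00443 to 0.0176). No direction for Cd96 in blood therefore holds across both scales. The TPM call against bone marrow was also lost without any 1 of bone marrow replicates 1 to 3, without blood replicate 2 or without blood replicate 3, at adjusted p from 0.052 to 0.131. Median ratio scaling lost it too (-0.02, adjusted p = 0.914). So did removing abundant RNA classes (adjusted p = 0.14) and using no trend or robust setting (adjusted p = 0.0908).

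Cd226, on chromosome 18, separated liver from lung. It measured 294.80, 203.45 and 170.77 TPM in liver, 132.61, 107.37 and 150.30 in blood and 129.63, 108.03 and 106.79 in bone marrow. Lymph node held 91.04, 96.64 and 113.10 TPM, spleen 78.64, 116.08 and 89.36, and lung only 34.43, 43.50 and 37.17. Liver was above and lung below every other library, whereas blood, bone marrow, lymph node and spleen formed an overlapping chain. Blood was higher than lung by 1.73 (limma, SE 0.19, adjusted p = 1.56e-06). It was lower than liver by -0.75 (adjusted p = 0.00469), a call lost with library weights (adjusted p = 0.0616) and with only these 2 sites fitted (adjusted p = 0.0612). Relative to the T cell genes this difference reversed (0.21, adjusted p = 0.36). The differences of blood from spleen (0.46, adjusted p = 0.0721), lymph node (0.37, adjusted p = 0.15) and bone marrow (0.17, adjusted p = 0.561) did not pass in TPM and did pass relative to the T cell genes (1.34, 1.48 and 0.64, adjusted p from 7.47e-06 to 0.0162). Platelets and natural killer cells also make CD226. Platelet markers were at least 2208.8 TPM in blood and at most 82.8 in bone marrow, natural killer and CD8 T cell markers were also highest in blood, and their part in the Cd226 values was not tested.

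Because TIGIT and CD226 compete for the same ligand with opposite effects, their ratio within a library was followed. The Tigit to Cd226 ratio was 0.12 ± 0.0282 in blood and 11.8 ± 0.864 in lung (SD, n = 3). The other 4 sites lay close together, at 1.53 ± 0.286 in spleen, 1.46 ± 0.137 in lymph node, 1.22 ± 0.143 in bone marrow and 1.51 ± 0.489 in liver. Every blood library was below and every lung library above all libraries of those 4 sites. Marker sums of platelets and of natural killer and CD8 T cells were highest in blood, and their part in the blood ratio was not tested. Liver and lung, both high in Tigit, were set apart by Cd226. Pvr, the shared ligand, was itself higher in lung Treg libraries, at 59.85, 93.77 and 69.74 TPM, than in blood at 16.10, 17.50 and 16.46 (log2 fold change of blood -2.07, adjusted p = 8.64e-08, limma). Its means at the other sites were 17.7 in bone marrow, 18.3 in liver, 21.2 in spleen and 32.6 in lymph node. The 6 lung epithelium markers, all above a mean of 1 TPM in lung alone, summed to 224.7 to 300.3 TPM there and to at most 31.4 elsewhere, and the part of such cells in the Pvr values was not tested.

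**Figure D3:**
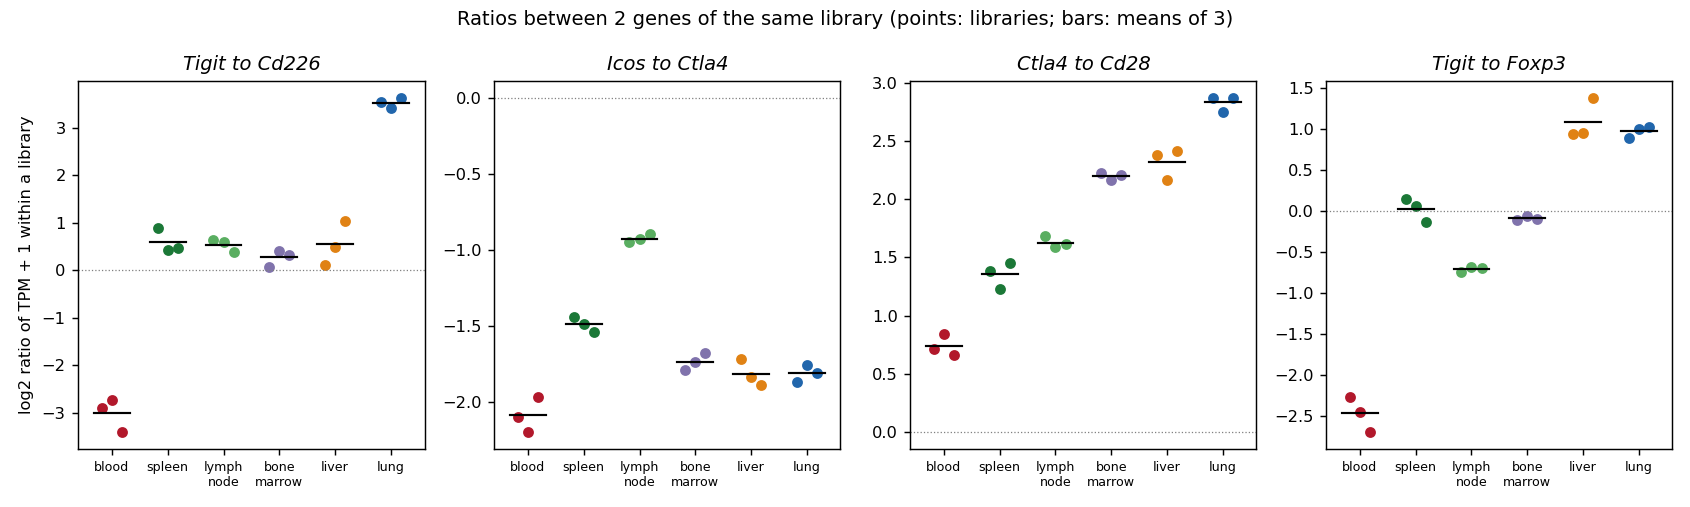
Log2 ratio of TPM + 1 between 2 genes of the same library, for Tigit to Cd226, Icos to Ctla4, Ctla4 to Cd28 and Tigit to Foxp3, by site; points are libraries, bars are means of 3 and the dotted line marks equal levels. The Tigit to Cd226 ratio is lowest in blood and highest in lung, and the Icos to Ctla4 ratio is highest in lymph node.

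Lag3, on chromosome 6 at 124904361 to 124911705 on the minus strand and 16.1 kb from Cd4, was highest in lymph node. It measured 83.58, 84.03 and 81.63 TPM in lymph node and 33.68, 29.03 and 27.35 in spleen. Liver held 11.26, 10.63 and 7.64 TPM, bone marrow 6.40, 6.15 and 6.82, lung 3.32, 6.07 and 5.50, and blood 2.26, 1.44 and 2.96. All 6 sites were separate in this order. The log2 fold change of blood was -4.73 against lymph node, -3.29 against spleen, -1.76 against liver, -1.24 against bone marrow and -0.89 against lung (limma, SE 0.21, adjusted p from 4.27e-11 to 0.00256). The difference from lung did not pass relative to the T cell genes (-0.40, adjusted p = 0.124) or with only these 2 sites fitted (adjusted p = 0.0597). It turned to 0.16 relative to Foxp3 (adjusted p = 0.489). Those from lymph node, -5.22 to -3.53 over the settings tried, and from spleen, -3.75 to -2.60, passed in every setting.

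Havcr2, on chromosome 11 at 46454935 to 46481255 on the plus strand, was low throughout. It measured 12.36, 20.58 and 12.11 TPM in lung and 8.08, 7.49 and 7.18 in blood. Liver held 6.36, 3.64 and 3.81 TPM, lymph node 3.91, 4.08 and 4.53, spleen 0.67, 2.76 and 1.11 and bone marrow 1.58, 1.09 and 1.69. Lung was above all other sites and blood second, while liver overlapped lymph node and spleen overlapped bone marrow. Blood was higher than spleen by 1.86 and than bone marrow by 1.81 (limma, SE 0.29, adjusted p 8.95e-05 and 0.000148). The differences from lymph node (0.73, adjusted p = 0.0592) and liver (0.65, adjusted p = 0.0904) did not pass. Blood was lower than lung by -0.86 (adjusted p = 0.0243), which was lost without lung replicate 2 (-0.63, adjusted p = 0.112), without blood replicate 2 (adjusted p = 0.0602) or without blood replicate 3 (adjusted p = 0.0678). A pseudocount of 0.1 also lost this call (adjusted p = 0.0757). Relative to the T cell genes, lung and blood overlapped (-0.26, adjusted p = 0.446), and blood was higher than lymph node by 1.69 (adjusted p = 8e-05) and than liver by 1.49 (adjusted p = 0.000234). The 8 dendritic cell markers summed to 191.7 to 196.3 TPM in blood, 137.6 to 141.7 in bone marrow, 124.2 to 153.4 in spleen, 97.4 to 103.7 in lymph node, 90.4 to 132.4 in lung and 70.9 to 94.0 in liver, where Siglech was listed at 0. Of the single markers, chosen after their values were seen, Itgax was 39.7 ± 3.2 TPM in blood, 26.5 ± 8.73 in lung and at most 5.8 in the other group means. Itgax is itself among the 8 dendritic markers, and the others are not given singly here. In lung the sum of the 8 overlapped spleen, lymph node and liver and was below bone marrow. A mean of at least 1 TPM was reached by 7 of the 8 in blood, 7 in bone marrow and 6 in spleen. It was reached by 5 in lung, 3 in liver and only 1 in lymph node, so the lymph node sum says little about these cells. Havcr2 was lowest in bone marrow and spleen, which overlapped. The myeloid marker sum was highest in bone marrow, then in blood, then in lung. The part of dendritic and myeloid cells in the Havcr2 values was not tested.

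Counted over the 9 receptors, blood was lower for most. Against spleen, 6 receptors were lower and 2 higher in blood, where 15.3% and 20.1% of all tested genes were lower and higher. Against lymph node 6 were lower and 1 higher (21% and 16.4% of all genes), and against bone marrow 6 and 2 (18.8% and 13%). Against liver 7 were lower and 1 higher (16.1% and 23.3%), and against lung 7 and 2 (17.3% and 26.4%). The median log2 fold change of the 9 was -0.58, -1.32, -1.17, -1.76 and -0.89 in the same order, against 0, -0.15, -0.11, 0.07 and 0.12 over all genes. These comparisons share the blood libraries.

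By the values alone, the 3 blood libraries lay below the 3 libraries of the other site without overlap for 6 receptors against spleen (25.2% of all tested genes), 6 against lymph node (39.9%), 6 against bone marrow (35.6%), 7 against liver (18.2%) and 7 against lung (20.5%). They lay above for 2 receptors at each site, beside 28.2%, 24.6%, 23%, 27.3% and 31.5% of all genes. Btla was 1 of the pair at every site, joined by Havcr2 everywhere but in lung and by Cd226 in lung.

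Relative to the T cell genes, the median of all genes moved to 0.72 against spleen, 0.74 against lymph node, 0.27 against bone marrow, 0.88 against liver and 0.68 against lung. On that scale 4, 5, 5, 5 and 4 of the 9 receptors were lower in blood, beside 2.73%, 1.91%, 8.27%, 4.48% and 7.29% of all genes, and 5, 4, 4, 3 and 3 were higher, beside 54.4%, 56.9%, 30.1%, 62.8% and 52.9%. Tigit, Pdcd1 and Icos were lower and Btla higher in blood than at all 5 other sites on both scales, each passing the test. Lag3 was lower and passed on both scales against every site but lung.

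**Figure D4:**
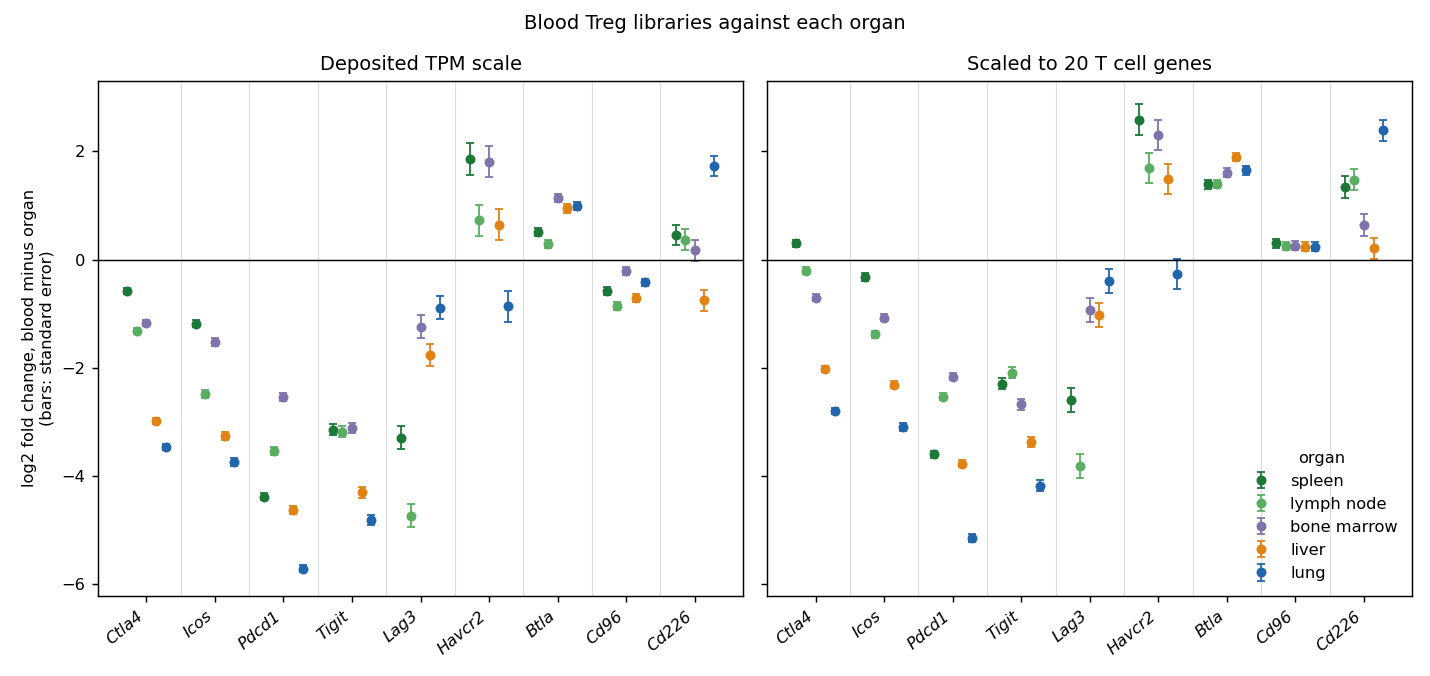
Log2 fold change of blood against each of 5 other sites for the 9 receptors, on the log2(TPM + 1) scale and relative to 20 T cell genes (left and right); colours are the other sites and bars are standard errors. Tigit, Pdcd1 and Icos stay below 0 and Btla above 0 in every comparison on both scales, whereas Cd96 changes side.

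Liver and lung together were compared with spleen and lymph node together, which sets non-lymphoid against lymphoid organs. Ctla4 was higher in the former by 2.27, Icos by 1.67, Havcr2 by 1.40, Tigit by 1.39 and Pdcd1 by 1.21 (limma, SE 0.04 to 0.20, adjusted p from 6.78e-16 to 4.15e-05). Lag3 was lower by -2.69, Btla by -0.57 (adjusted p 5.66e-10 and 1.32e-06) and Cd96 by -0.15 (adjusted p = 0.0199). In all, 5 receptors were higher and 3 lower, where 16.3% and 29.3% of all genes were, and their median was 1.21 against -0.15. Relative to the T cell genes 5 were higher and 2 lower, beside 20.7% and 18.6% of all genes. Cd96 lost its call relative to the T cell genes (0.03, adjusted p = 0.673). Cd226 showed no mean difference (-0.08, SE 0.13, adjusted p = 0.668), with liver above and lung below both lymphoid sites.

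The genes around these receptors, 69 in 5 lists, gave mixed counts. For comparison with every list, 20.1% of all tested genes were higher and 15.3% lower in blood than in spleen (median 0). Against lung, 26.4% of all genes were higher and 17.3% lower in blood (median 0.12). Of 12 ligand genes tested among 14, 5 were higher and 1 lower in blood than in spleen and 6 higher and 4 lower than in lung, with median log2 fold changes of 0.38 and 0.73. Cd274, which encodes the PD-1 ligand PD-L1, was 68.2 ± 5.36 TPM in liver and 69.1 ± 6.22 in lung against 27.9 ± 0.38 in blood and 33.9 at most in the remaining means (blood against lung -1.27, adjusted p = 5.4e-09, limma, and -0.62, adjusted p = 1.59e-05, relative to the T cell genes). Icosl, the ICOS ligand, was highest in blood and lowest in lung, from 32.76 ± 3.25 TPM in blood to 6.927 ± 2.34 in lung (2.13, adjusted p = 2.33e-07). The B cell marker sum was also highest in blood, and the part of B cells in the Icosl values was not tested. The galectin gene Lgals3 and Fgl2, which encodes a fibrinogen-like protein, had the largest ligand differences: Fgl2 was 218 ± 5.62 TPM in blood and 18.15 ± 2.24 in spleen. Myeloid cells make both of them, the myeloid marker sum was also far higher in blood than in spleen, and its part in these values was not tested.

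Among 16 other coreceptors, 6 were higher and 8 lower in blood than in spleen and 7 higher and 5 lower than in lung (medians -0.32 and 0.30). The largest differences were those of Cd244a (37.53 ± 1.09 TPM in blood, at most 3.637 elsewhere) and Ceacam1 (78.18 ± 2.95 in blood, 58.3 ± 3.93 in bone marrow and at most 4.363 elsewhere), both also made by natural killer or myeloid cells. Of 13 genes of receptor traffic, shedding and decay, 5 were higher and 2 lower in blood than in spleen and 5 higher and 3 lower than in lung (medians 0.28 and -0.10). Lrba, whose product protects CTLA-4 from lysosomal breakdown, was lower in blood than at all 5 sites, at 13.65 ± 0.901 TPM against 22.81 to 31.28, with log2 fold changes from -0.70 to -1.14 (adjusted p from 6.31e-06 to 0.000795). Lrba passed at none of the 5 sites relative to the T cell genes, at log2 fold changes from -0.36 to 0.15 (limma, adjusted p from 0.0597 to 0.701). March1, a ubiquitin ligase acting on CD86 and MHC class II, was higher, at 64.48 ± 1.56 TPM against 2.01 to 11.5. B cell and dendritic cell marker sums were highest in blood too, and the part of such cells in the March1 values was not tested. Of 12 adaptors, 3 were higher and 3 lower in blood than in spleen and 5 higher and 5 lower than in lung (medians 0.01 and -0.09). Ptpn6, the phosphatase recruited by inhibitory motifs, fell from 374 ± 5.78 TPM in blood to 45.46 ± 18.8 in lung, whereas Sh2d1a was 45.18 ± 5.53 in blood and 140.8 ± 18.5 in spleen. Myeloid and B cell marker sums were also higher in blood than in lung, and their part in the Ptpn6 values was not tested. Sh2d1a is itself 1 of the 20 T cell genes, and relative to them it passed only against spleen among the 5 sites (-0.75, adjusted p = 0.00301). Of 14 transcription regulators, 11 were lower and 1 higher in blood than in liver (median -1.04, beside 16.1% and 23.3% of all genes and a median of 0.07), and 6 were lower and 6 higher relative to the T cell genes (median -0.12). In TPM the split was 4 higher and 6 lower against spleen and 4 higher and 9 lower against lung (medians -0.23 and -0.50). Maf was lower in blood, at 20.65 ± 0.346 TPM against 83.52 to 131.7 (log2 fold changes from -1.96 to -2.62, adjusted p at most 6.09e-13), while Eomes, which is also on the natural killer marker list, was higher, at 11.32 ± 1.15 against at most 2.16.

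These counts moved with the scale as well. Of the 67 genes tested in the 5 lists, 23 were higher and 20 lower in blood than in spleen in TPM, and 48 and 7 relative to the T cell genes. All tested genes moved the same way, from 20.1% higher and 15.3% lower in TPM to 54.4% and 2.73%. On that scale the split against spleen was 7 and 1 for the other coreceptors, 10 and 0 for the ligands, 12 and 0 for receptor traffic, 9 and 2 for the adaptors and 10 and 4 for the regulators. Against liver the split was 19 and 29 in TPM and 46 and 11 relative to the T cell genes, 6 of which are in the lists themselves. Of all genes, 23.3% were higher and 16.1% lower than in liver in TPM, and 62.8% and 4.48% relative to the T cell genes. The shift of the list counts was thus shared by the genes at large.

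Across the 18 libraries, which share their sites and scale, Ctla4 and Icos went together (Pearson r of log2(TPM + 1) = 0.96, and 0.94 relative to the T cell genes), as did Tigit and Pdcd1 (0.95 and 0.93). Btla ran against Tigit (-0.76 and -0.90). Lag3 and Cd96 went together in TPM only (0.83 and -0.41). The 3 other genes most like each receptor were Calca, Crem and Areg for Ctla4 (r = 0.983, 0.977 and 0.975), Bex3, Camk4 and Ass1 for Tigit (0.979, 0.977 and 0.972) and Tnfrsf4, Batf and Cd2 for Pdcd1 (0.981, 0.98 and 0.969). For Icos they were Ass1, Itpkb and Lamc1 (0.971, 0.968 and 0.958), for Btla Ogt, Vmn2r97 and Mcub (0.952, 0.937 and 0.922), and for Havcr2 Mier1, Tnfrsf1b and Fyb (0.941, 0.929 and 0.927). Vmn2r97 belongs to a multigene family and its own value is uncertain. Those of Lag3 (Agfg1, Fyn and Hdac1, 0.965, 0.957 and 0.94) fell to 0.19, 0.395 and 0.259 relative to the T cell genes. For Cd96 they were Slc41a1, Eif3h and Eef1a1 (0.947, 0.943 and 0.94), of which Slc41a1 fell to -0.075, and for Cd226 H2-K2, Ahsa2 and Gabarapl2 (0.914, 0.908 and 0.903). These correlations describe the libraries and carry no test.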

How the data were processed

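Per the labels' protocols, polyadenylated RNA of sorted Treg cells was made into directional libraries. For each library the authors deposited the TPM of 55487 Ensembl IDs. Per the submitters' processing notes, STAR, RSEM and mm10 were used, with no versions given in the sources used here. TPM keeps no library depth, so no counting intervals are given and small levels are less certain.

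Symbols from GENCODE M21 matched 55141 IDs. Genes whose mean reached 1 TPM at any site were tested (16694, all 9 receptors among them) with limma 3.58.1 in R 4.3.3 on log2(TPM + 1), 1 mean per site over all 18 libraries, moderated variances with trend and robust settings, and Benjamini-Hochberg adjustment over all genes at 0.05. The design allowed for counts or TPM, and the form for TPM applied. On simulated data with 200 changed genes among 16694, 61% to 65% of changes of 1 and 93% to 97% of changes of 2 on the log2 scale were called. The changed genes were drawn from those with an overall mean of at least 10 TPM, with changes in blood only and normal noise. These rates therefore do not cover a receptor as low as Havcr2.

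The receptors and all lists were chosen with earlier results of these data known. From each list of related genes, the 2 with the largest mean absolute log2 fold change over the 5 blood comparisons were named, if called in at least 3 and at 10 TPM or more in 1 site, besides genes a receptor binds. The genes most like a receptor were the 3 of highest Pearson correlation, of at least 10 TPM in 1 site. Alternatives were scaling to 20 T cell genes or by median ratios, removing abundant RNA classes, a pseudocount of 0.1, no filter or one at 5 TPM, library weights, no trend or robust setting, a replicate block, leaving out each library and fitting only the 2 sites compared. Scaling to Foxp3 was added after seeing the data.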

Additional observations from a re-analysis of the deposited data

How the results depend on the processing

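Over 54 values (9 receptors in 6 comparisons), direction and call were both kept by all 54 under either filter, by 53 each with the pseudocount of 0.1 and without abundant RNA classes, and by 952 of 972 when 1 library was left out. Of the other 20 of these, 9 lost a call, 10 gained one and 1 changed sign. Scaling to 20 T cell genes reversed 9. Ctla4 against spleen turned to 0.30, Cd96 to 0.30 against spleen, 0.25 against lymph node, 0.26 against bone marrow, 0.24 against liver and 0.24 against lung, Cd226 against liver to 0.21, and in liver and lung against spleen and lymph node Cd96 turned to 0.03 and Cd226 to 0.11. Receptors called higher in blood were then 5 against spleen, 4 against lymph node, 4 against bone marrow and 3 against liver, and 4 were lower against lung. Genes of the 5 lists called higher and lower were 48 and 7 against spleen (23 and 20 in TPM), 46 and 8 against lymph node (17 and 30), 38 and 8 against bone marrow (18 and 16) and 46 and 11 against liver (19 and 29). In the same order, 54.4%, 56.9%, 30.1% and 62.8% of all genes were higher on that scale, and 2.73%, 1.91%, 8.27% and 4.48% lower. Scaling to Foxp3 turned Ctla4 to 0.07 against spleen and 0.11 against lymph node, Cd96 to 0.07, 0.56, 0.52, 0.03 and 0.94 in the order above, Lag3 against lung to 0.16 and Havcr2 against lung to 0.40. Receptors higher in blood were then 4 against lymph node, 4 against bone marrow and 2 against liver, and 4 were lower against lung, and list genes higher and lower were 44 and 12, 52 and 4, 45 and 5, 40 and 13, and 47 and 7 (27 and 26 in TPM against lung). Shares of all genes on the Foxp3 scale are not given here. Median ratio scaling turned Cd226 to 0.06 in liver and lung against spleen and lymph node. Receptors called higher in blood against lymph node were 1 as reported, 3 with median ratio scaling, 3 with library weights, 2 with no trend or robust setting and 2 with only those 2 sites, and Havcr2 and Cd226 were near the threshold. The causes were not tested beyond the scaling itself, which changes every gene of a library by 1 factor. Leaving out 1 library gave 0 to 2 receptors higher against lymph node and 1 to 2 against liver, and Cd226 in liver and lung against spleen and lymph node ranged from -0.19 (without liver replicate 1) to 0.01 (without liver replicate 3).

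With the replicate number as a block, all 54 values kept direction and call, for example -4.38 for Pdcd1 in blood against spleen. Deviations from the site means correlated little between same-numbered libraries: 0 of 45 pairs were over 0.1 (from -0.034 to 0.03). Of the 18 libraries, 9 correlated best with their own number. Such small correlations cannot show whether same-numbered libraries shared animals or a sort.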

Other observations

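Relative to Foxp3, a scale added after seeing the data, Ctla4 in blood was 259.6, 234.66 and 217.3 and overlapped both spleen (250.17, 196.46 and 232.66) and lymph node (228.17, 218.09 and 213.5), in TPM scaled to a common Foxp3 level. Bone marrow was higher, at 327.94, 309.47 and 326.84. Liver (936.93, 1188.72 and 1269.81) and lung (1097.36, 966.54 and 974.09) stayed well above and overlapped each other. Btla on the same scale was 188.7 ± 17.7 in blood and 36.3 ± 3.83 in lung (SD, n = 3), with 83.5 in spleen, 56.9 in lymph node, 50.9 in bone marrow and 57.7 in liver.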
